A study of Mus musculus with 2 samples.

Results

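*Fos*, *Jun*, *Egr1*, *Nr4a2*, *Dusp2*, *Btg2* and *Tob1*, 7 of the 11691 genes in the deposited table, were followed as a group of stimulus response genes. They were taken by name and chosen by their levels and their differences between the Em-Ex and YS-Ex libraries in earlier results of these data. All 7 were in the table, and they were described in Cpa3-high cells, defined as cells with 40 or more *Cpa3* unique molecular identifiers (UMIs) per 10000 UMIs of the cell. *Cpa3* encodes carboxypeptidase A3, a protease of mast cell granules. Both the choice of genes and the *Cpa3* limit were made with measured values of these cells in view, so all the levels below are a description.

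The study cultured embryo tissue and yolk sac apart from each other, to compare the blood cells that each can make. C57/BL6 concepti at E8.5 (Theiler stage 12, with 5 to 7 somite pairs) were separated into intraembryonic tissue, which gave embryo explants (Em-Ex), and yolk sac, which gave yolk sac explants (YS-Ex). Both groups were grown at the air-liquid interface (9 to 10 days per the labels, and day 10 in the study's account of the sequenced cells) in 20% FCS with SCF, IL-3 and FLT3 ligand, each at 100 ng/ml, and both were dissociated with collagenase and sorted for CD31+CD45+c-Kit+CD41- cells. From each group 8600 cells were loaded for 1 droplet library, and tissue of many concepti was pooled. With 1 library per group there was no test: the 95% intervals, exact Poisson for levels, exact conditional for ratios and exact Clopper-Pearson for shares of cells, cover counting error only, and the source tissue and the library cannot be told apart.

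Immediate-early genes are switched on within minutes of a growth factor, cytokine or stress signal, without new protein synthesis, and their transcripts are short-lived. *Fos* and *Jun* encode the partners of the AP-1 transcription factor, *Egr1* a zinc finger transcription factor downstream of ERK signalling and *Nr4a2* an orphan nuclear receptor. *Dusp2* encodes a nuclear phosphatase that removes phosphate from MAP kinases and so ends the signal. *Btg2* and *Tob1* belong to the BTG/TOB family of anti-proliferative proteins, which bind the CCR4-NOT deadenylase and favour the decay of bound transcripts. In mast cells, *Fos*, *Jun* and *Egr1* are known to rise when Kit or the IgE receptor is engaged, and enzymatic dissociation of tissue is also known to raise them.

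In mm10 the annotated genes were on chromosome 12 from 85473890 to 85477273 (+) for *Fos*, chromosome 4 from 95049034 to 95052222 (-) for *Jun*, chromosome 2 from 57106830 to 57124003 (-) for *Nr4a2* and from 127336159 to 127338376 (+) for *Dusp2*, chromosome 1 from 134075170 to 134079120 (-) for *Btg2*, and chromosome 11 from 94211454 to 94215495 (+) for *Tob1*. *Junos* is annotated across *Jun* on the opposite strand. The strand setting of the counting is not given in the sources used here, so reads of these neighbours cannot be told apart with certainty. No gene of the annotation overlapped the other 5.

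The promoters of *Fos* and *Jun* and of *Btg2* and *Tob1* are shown because these are an AP-1 pair and a pair of one gene family. Each window runs from 250 bases before to 50 bases after the start of the transcript, from RefSeq (GRCm38.p6), and capitals mark TGACG on either strand, the core of the cyclic AMP response element that CREB family factors bind.
Fos, chr12:85473640-85473939 (+): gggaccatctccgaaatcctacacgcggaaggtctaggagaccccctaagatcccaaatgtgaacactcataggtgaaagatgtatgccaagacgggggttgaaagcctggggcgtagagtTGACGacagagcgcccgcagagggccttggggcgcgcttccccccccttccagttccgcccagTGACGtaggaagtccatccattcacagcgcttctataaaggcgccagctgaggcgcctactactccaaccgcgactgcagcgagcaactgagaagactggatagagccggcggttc
Jun, chr4:95052173-95052472 (-): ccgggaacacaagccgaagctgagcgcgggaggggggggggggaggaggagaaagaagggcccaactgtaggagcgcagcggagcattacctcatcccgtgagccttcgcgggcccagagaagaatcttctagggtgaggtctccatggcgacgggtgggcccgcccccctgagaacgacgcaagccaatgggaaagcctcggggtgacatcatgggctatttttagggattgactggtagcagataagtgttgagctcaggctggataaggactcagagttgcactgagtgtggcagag
Btg2, chr1:134079106-134079405 (-): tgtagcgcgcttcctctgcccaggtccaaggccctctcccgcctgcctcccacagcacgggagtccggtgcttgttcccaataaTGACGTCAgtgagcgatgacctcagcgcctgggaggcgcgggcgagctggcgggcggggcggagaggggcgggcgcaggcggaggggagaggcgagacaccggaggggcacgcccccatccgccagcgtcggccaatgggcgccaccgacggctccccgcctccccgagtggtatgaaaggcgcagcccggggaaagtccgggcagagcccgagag
Tob1, chr11:94211204-94211503 (+): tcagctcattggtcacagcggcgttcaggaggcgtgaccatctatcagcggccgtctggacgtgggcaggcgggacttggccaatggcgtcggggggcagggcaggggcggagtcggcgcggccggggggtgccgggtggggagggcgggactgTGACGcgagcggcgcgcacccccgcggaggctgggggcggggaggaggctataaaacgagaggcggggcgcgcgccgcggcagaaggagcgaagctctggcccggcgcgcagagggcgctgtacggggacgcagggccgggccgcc

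Of the 6 promoters matched (none was matched for *Egr1*), 5 held TGACG on either strand, which 20.8% of all 32851 promoter windows also did. *Btg2* alone held the whole palindrome TGACGTCA, present in 1.79% of all windows, and the run of capitals in its sequence is that palindrome, with TGACG on both strands. The AP-1 site TGANTCA was in 0 of the 6 windows and in 7.81% of all windows, the CArG box was in 0 and in 1.63%, and TATAAA was in 3 (*Fos*, *Nr4a2* and *Tob1*) and in 13.6%. These are matches of letters in a short window, with no measurement of binding. Other spellings of a site, and sites outside the window, were not looked for, so a 0 does not mean that the promoter lacks the site.

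After the cell filter, 3071 Em-Ex and 2087 YS-Ex cells were left, of which 2200 (71.6%) and 1946 (93.2%) were Cpa3-high, with a median of 11245.5 and 11809 UMIs per cell. Leaving out *Cpa3*, which defines the class, the other 9 mast cell genes summed to 29368 UMIs per 1000000 (CPM) in Cpa3-high cells of Em-Ex and 28310 CPM in those of YS-Ex. Of the genes of the sort, *Kit* was at 340 CPM in Em-Ex against 993 CPM in YS-Ex, *Ptprc* (CD45) at 44.6 and 105, *Pecam1* (CD31) at 54.7 and 51.6, and *Itga2b* (CD41), against which cells were sorted, was present at 22.9 and 14.9. *Cpa3* was within 5 UMIs per 10000 of the limit in 141 Em-Ex and 49 YS-Ex cells. The libraries shared 35 barcodes, of which 15 were Cpa3-high in Em-Ex and 18 were Cpa3-high in YS-Ex, and without them the same number of the 7 genes, 6, passed the fold limit used below.

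*Fos* was found in nearly all Cpa3-high cells of both libraries at 1153 CPM (1140–1165) in Em-Ex against 1740 CPM (1724–1756) in YS-Ex. *Jun* was at 735 CPM (725–746) and 1019 CPM (1007–1032), and *Egr1* at 355 CPM (348–362) and 570 CPM (561–580). YS-Ex was the higher library for each of these genes, and no interval of one library reached that of the other. *Nr4a2* was at 41.1 CPM (38.7–43.5) in Em-Ex against 62.9 CPM (59.8–66.1) in YS-Ex. *Btg2* was at 25 CPM (23.2–27.0) and 72.0 CPM (68.7–75.4), and *Tob1* at 22.2 CPM (20.4–24.0) and 45.7 CPM (43.1–48.4). *Dusp2* went the other way, with 14.6 CPM (13.2–16.1) in Em-Ex against 3.92 CPM (3.19–4.77) in YS-Ex.

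Single cells spanned a broad range of *Fos*, *Jun* and *Egr1*. The median cell held 11.0 UMIs of *Fos* per 10000 in Em-Ex against 17.1 in YS-Ex, with the middle 90% of cells between 0.639 and 31.2 and between 3.17 and 39.1. For *Jun* the medians were 6.75 and 9.69, and for *Egr1* 3.24 and 5.45. The other 4 genes had a median of 0 in both libraries. *Fos* was at 0 in 4.27% of Em-Ex and 0.976% of YS-Ex cells, and *Egr1* in 12.2% and 4.06%.

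With every cell thinned to 3000 UMIs, which left out no cell, the share of cells with a UMI still differed between the libraries. It was 85.1% (83.6–86.6) in Em-Ex against 94.2% (93.1–95.2) in YS-Ex for *Fos*, 5.45% (4.54–6.49) and 12.8% (11.4–14.4) for *Btg2*, and 5.82% (4.88–6.88) and 12.5% (11.1–14) for *Tob1*. Unthinned, the *Btg2* share was 13.3% and 28.4% and the *Tob1* share 18.3% and 33.3%. In the same thinned cells the variance over the mean was 3.07 and 2.76 for *Fos*, 2.64 and 2.82 for *Jun*, 2.26 and 2.18 for *Btg2* and 2.08 and 1.68 for *Dusp2*, but 1.32 and 1.48 for *Nr4a2* and 1.25 and 1.16 for *Tob1*, where a value of 1 is pure counting noise. In unthinned counts, the 10% of cells richest in *Btg2* held 89.3% of its UMIs in Em-Ex and 71.2% of those in YS-Ex, and for *Tob1* the values were 70.0% and 51.3%. These values are tied to the unthinned shares of cells with any UMI of the gene, given above.

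**Figure D1:**
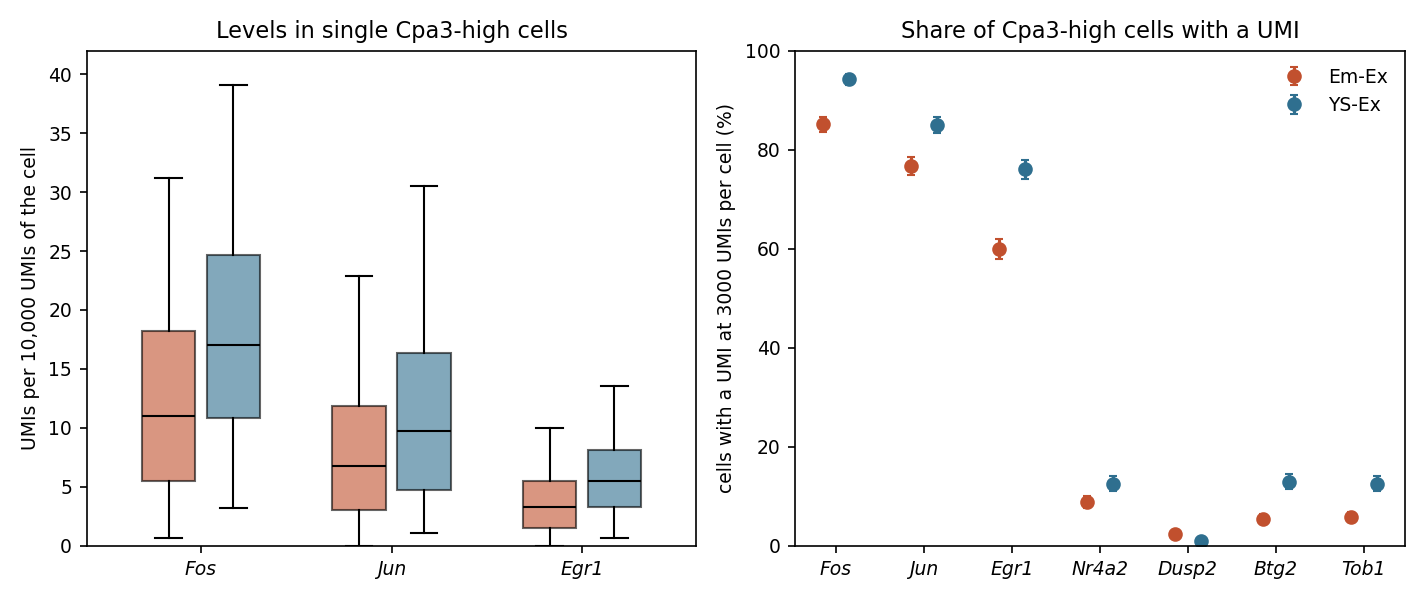
Left, UMIs per 10,000 UMIs of the cell for Fos, Jun and Egr1 in Cpa3-high cells of Em-Ex (orange) and YS-Ex (blue), with the median as a line, the box from the 25th to the 75th percentile and whiskers at the 5th and 95th. Right, percent of Cpa3-high cells with a UMI after thinning every cell to 3000 UMIs, with exact 95% intervals: YS-Ex lies above Em-Ex for every gene except Dusp2.

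Between the libraries, 5 of the 6 genes at 20 CPM or more in either library were lower in Em-Ex by 1.5-fold or more, which 22.7% of all 5043 genes at that level also were. With *Dusp2*, 6 of the 7 were past 1.5-fold in either direction, beside 31.4% of all genes. In Em-Ex the level was 0.348 (0.318–0.380) of that in YS-Ex for *Btg2*, 0.485 (0.439–0.536) for *Tob1*, 0.622 (0.606–0.639) for *Egr1*, 0.653 (0.604–0.705) for *Nr4a2* and 0.662 (0.653–0.672) for *Fos*. *Jun*, at 0.722 (0.708–0.735), was just outside the limit and *Fos* just inside it. *Dusp2*, under the 20 CPM minimum in both libraries, was 3.72-fold (2.97–4.68) higher in Em-Ex. Over all 5043 genes the median log2 ratio was 0.03, and of the genes past the limit 437 were higher and 1144 lower in Em-Ex, or 672 and 990 with TMM factors, under which 4 of the 7 genes passed.

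The direction was the same in every subset of cells examined for *Fos*, *Jun*, *Egr1*, *Btg2*, *Tob1* and *Dusp2*, but the size was not. Divided by *Cpa3* level, the *Btg2* ratio of Em-Ex to YS-Ex was 0.348 at 40 to 80 UMIs of *Cpa3* per 10000, 0.340 at 80 to 160 and 0.372 above, while that of *Jun* went from 0.641 to 0.751 and 0.847. For *Dusp2* the ratios were 3.26 (2.05–5.46), 5.36 (3.56–8.38) and 1.56 (1.03–2.36). The number of the 7 genes past 1.5-fold was 6, 4 and 4, beside 34.7%, 31.3% and 29.7% of all genes.

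Divided by depth, the *Btg2* ratio was 0.817 (0.620–1.08) in cells under 8000 UMIs, 0.412 (0.366–0.464) from 8000 to 16000 and 0.197 (0.165–0.234) above. *Nr4a2* moved with depth too, from 1.02 (0.757–1.37) to 0.742 (0.661–0.833) and 0.554 (0.494–0.621), so in the shallow cells neither gene differed between the libraries beyond counting error. *Fos* went from 0.778 to 0.671 and 0.578 and *Tob1* from 0.571 to 0.556 and 0.391, whereas *Jun* stayed between 0.680 and 0.736. Of the 7 genes 3, 4 and 6 were past 1.5-fold in either direction in these cells, beside 32.8%, 31.6% and 33.6% of all genes. Among cells with no UMI of the cell cycle genes *Mki67* and *Aspm* the count was 4 (31.9% of all genes) and among cells high for them it was 6 (29.6%), with a *Btg2* ratio of 0.399 (0.362–0.438) and 0.223 (0.145–0.332).

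**Figure D2:**
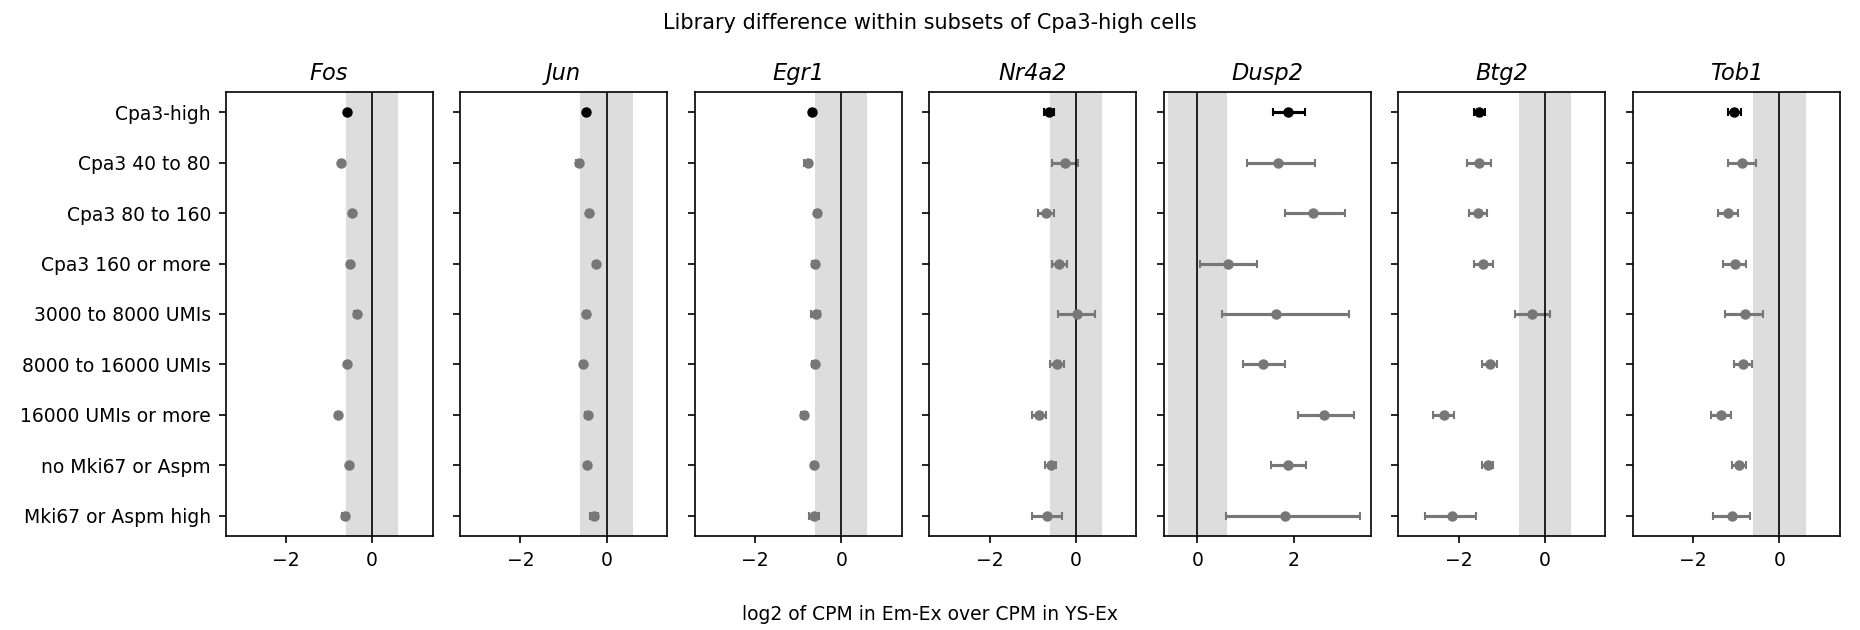
The log2 ratio of CPM in Em-Ex over YS-Ex for each gene (dots, with exact 95% intervals for counting error) in all Cpa3-high cells (black) and in subsets by Cpa3 level per 10,000 UMIs, by UMIs per cell and by Mki67 and Aspm (gray). The gray band is under 1.5-fold, and Dusp2 is the one gene to the right of 0 in every subset, on its own axis range.

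Relatives of these genes did not all follow them. Of 22 other immediate-early transcription factor genes, 16 reached 20 CPM, 1 was higher and 5 were lower in Em-Ex past 1.5-fold (8.67% and 22.7% over all genes), with a median log2 ratio of -0.07. *Fosb*, the *Fos* paralog, was at 263 CPM in Em-Ex against 745 CPM in YS-Ex, or 0.353 (0.343–0.363) of that level. *Jund*, an AP-1 partner, had a ratio of 0.582 (0.566–0.598), and *Klf6*, a zinc finger factor, 0.653 (0.636–0.670). *Junb*, by contrast, was at 1206 and 1110 CPM, and *Ier2* at 1082 and 732 CPM and *Ier3* at 1107 and 767 CPM were the higher in Em-Ex. *Junb*, *Ier2* and *Ier3* were under 1.5-fold and were singled out after their values were seen.

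Counts in the related lists are to be read against the same shares of all genes, 22.7% lower and 8.67% higher. Of 20 genes for feedback inhibitors, 13 were at 20 CPM or more (median log2 ratio -0.35), of which 3 were lower in Em-Ex, among them the transcript decay factors *Zfp36l2* (0.582) and *Zfp36l1* (0.648) and the ERK inhibitor *Spred1* (0.649). *Nfkbia*, which encodes the NF-kB inhibitor, was higher by 1.82-fold (1.74–1.91). Among BTG/TOB relatives and CDK inhibitors, 3 of the 7 at 20 CPM or more were lower and 0 higher (median -0.22), with *Tob2* at 27.1 and 60.5 CPM and the CDK inhibitor *Cdkn1b* (p27) at 11.9 and 52.7 CPM. Of the CCR4-NOT list, 3 of 9 were lower (median -0.06), including the deadenylase subunit gene *Cnot6l* (0.471) and *Cnot3* (0.583). The ERK pathway list had 2 of 7 lower (median -0.12). The heat shock list had 1 of 7 higher (*Hspa8*, 1926 against 1201 CPM) and 0 lower (median 0.19).

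Markers of other cells in Cpa3-high cells also differed between the libraries. The summed level was 13.2 CPM in Em-Ex against 2.85 CPM in YS-Ex for 4 neutrophil progenitor genes, 66.8 and 24.4 for 6 macrophage genes, 574 and 372 for 3 basophil genes and 87.7 and 205 for 4 erythroid genes, and 3 stromal genes were at 1.83 and 0. Cell cycle genes differed too: 20 S phase genes summed to 825 and 612 CPM, with 8 of the 15 tested higher in Em-Ex and 0 lower (median log2 ratio 0.65), and 20 G2/M genes to 939 and 802 CPM, with 9 of 18 higher and 4 lower. The median share of mitochondrial UMIs was 3.19% and 3.61%. Their part in the library difference of the 7 genes was not tested.

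Across Cpa3-high cells correlations between the 7 genes were highest among *Fos*, *Jun* and *Egr1*. The Pearson correlation of log-transformed levels was 0.43 in Em-Ex (2200 cells) and 0.39 in YS-Ex (1946 cells) for *Fos* and *Jun*, 0.31 and 0.33 for *Fos* and *Egr1*, and 0.24 and 0.23 for *Jun* and *Egr1*. *Btg2* and *Tob1* had 0.20 and 0.22. *Egr1* was at 0.18 and 0.17 with *Btg2* and 0.12 and 0.11 with *Tob1*. These 6 of the 21 pairs had a correlation of 0.1 or more in both libraries, which 2.45% of the 8215431 pairs of 4054 genes also had.

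None of the remaining pairs reached 0.1 in both libraries. The correlations of *Dusp2* with the other 6 genes lay between -0.07 and 0.03. *Jun* and *Tob1* were at -0.02 in Em-Ex against -0.12 in YS-Ex, *Jun* and *Nr4a2* at -0.02 and -0.13, and *Nr4a2* was positively correlated with *Btg2* (0.08 and 0.18), *Tob1* (0.08 and 0.11) and *Egr1* (0.12 and 0.10, the latter just under the limit before rounding). The points are cells of 1 library each and share its depth range, and the weak correlations that involve *Nr4a2*, *Dusp2*, *Btg2* or *Tob1*, each with a median of 0, that of *Btg2* and *Tob1* included, are given as a description only. Thinned to 3000 UMIs, *Fos* and *Jun* had 0.33 and 0.29 and *Btg2* and *Tob1* 0.13 and 0.11, while *Egr1* fell under 0.1 in both libraries with *Btg2* (0.078 and 0.072) and with *Tob1* (0.072 and 0.038). In cells without *Mki67* or *Aspm*, at full depth, *Fos* and *Jun* had 0.37 and 0.35 and *Btg2* and *Tob1* 0.22 and 0.22.

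As shares of thinned cells, *Tob1* was seen in 18.3% (11.9–26.4) of the 120 Em-Ex cells with *Btg2* and in 5.10% (4.19–6.13) of the 2080 without it. In YS-Ex it was seen in 22.4% (17.4–28.1) of 250 cells and 11.0% (9.57–12.6) of 1696 cells. *Jun* was seen in 80.2% of Em-Ex cells with *Fos* and 56.9% of those without, and in 86.2% and 66.1% in YS-Ex.

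**Figure D3:**
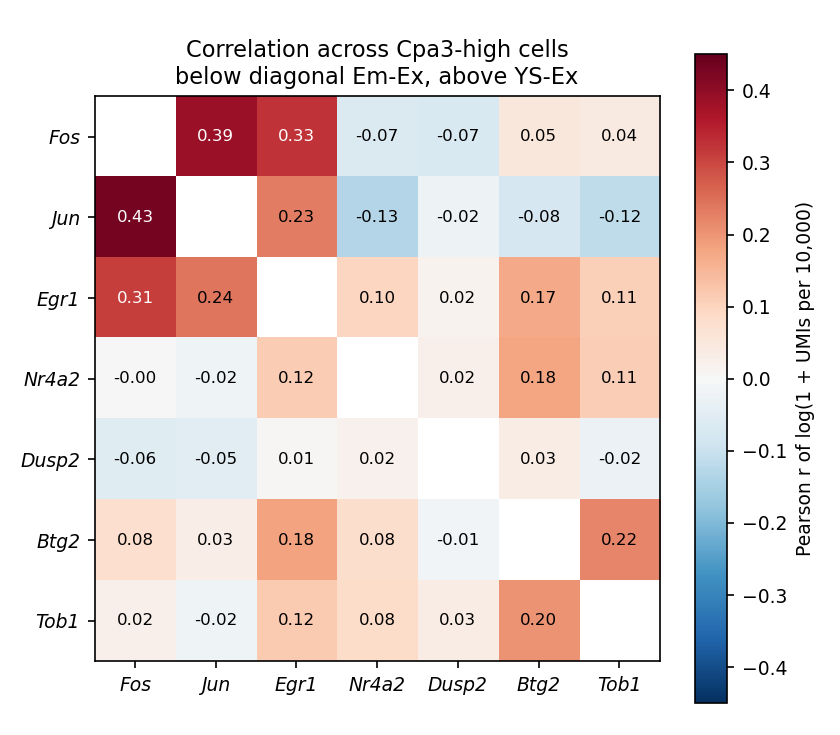
Pearson correlation of log(1 + UMIs per 10,000) for each pair of the 7 genes across Cpa3-high cells, with Em-Ex below the diagonal and YS-Ex above it, with the color scale from -0.45 (blue) to 0.45 (red). The block of Fos, Jun and Egr1 reaches 0.43, Btg2 and Tob1 are at 0.20 and 0.22, and the row of Dusp2 is pale.

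The 5 genes most like the summed level of the 7, out of 4048 genes, were *Junb* (0.56 in Em-Ex against 0.46 in YS-Ex), *Fosb* (0.46 and 0.51), *Klf6* (0.41 and 0.39), *Rgs2* (0.41 and 0.37), which encodes a regulator of G protein signalling, and *Jund* (0.36 and 0.37). Taken one at a time, with the genes chosen after their values were seen, the closest gene was *Fosb* for *Fos* (0.51 and 0.62), *Junb* for *Egr1* (0.40 and 0.37), *Nr4a1* for *Nr4a2* (0.22 and 0.26), *Ccr2* for *Btg2* (0.25 and 0.36) and *Pdlim1* for *Tob1* (0.23 and 0.23). Ranked by the weaker of both libraries, the genes most negatively correlated were *Serpinb1a* for *Btg2* (-0.23 and -0.27), *Fxyd5* for *Tob1* (-0.17 and -0.34) and *Ifitm2* for *Nr4a2* (-0.17 and -0.23). Mast cell genes were not alike in this: *Btg2* had -0.18 and -0.31 with the tryptase gene *Tpsb2* but -0.01 and 0.01 with *Cpa3*, and *Nr4a2* had -0.16 and -0.19 with the chymase gene *Mcpt4* but 0.10 and 0.07 with *Cpa3*. The first gene for *Dusp2*, by the lower of both libraries, was *Eif4a1*, at 0.07 in each, and among the genes looked up *Hspa8* had 0.10 in Em-Ex and 0.05 in YS-Ex.

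*Mki67*, the Ki-67 gene of cycling cells, and *Aspm*, a spindle pole gene of mitosis, divided Cpa3-high cells into 161 Em-Ex and 191 YS-Ex cells with 2 or more UMIs of them per 10000, 296 and 186 cells below that, and 1743 and 1569 cells without a UMI of either. The high cells were deeper, with medians of 17232 and 10231 UMIs for Em-Ex and of 19997 and 10926 for YS-Ex, and 104 Em-Ex and 56 YS-Ex cells lay within 0.5 UMIs per 10000 of the limit. The median log2 ratio of all genes between high cells and cells without them was 0.20 in Em-Ex against 0.14 in YS-Ex, so the values below are given on the CPM scale and again relative to that median.

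*Btg2* was lower in the *Mki67*/*Aspm*-high cells of both libraries. It was at 10.3 CPM in *Mki67*/*Aspm*-high and 32.0 CPM in *Mki67*/*Aspm*-0 cells of Em-Ex, a ratio of 0.321 (0.213–0.465), and at 46.1 and 80.4 CPM in those of YS-Ex, which gives 0.573 (0.486–0.672). *Dusp2* had ratios of 0.443 (0.267–0.696) and 0.439 (0.171–0.948), the latter from 7 UMIs. These 2 of the 7 genes were past 1.5-fold in each library, both lower in the high cells, as were 4.84% of all genes in Em-Ex against 7.06% in YS-Ex (937 higher and 237 lower in Em-Ex, 1083 and 375 in YS-Ex); *Dusp2* was under the 20 CPM minimum that those genes had to reach.

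*Fos* had ratios of 0.731 (0.702–0.761) and 0.781 (0.758–0.804), *Jun* 0.745 (0.708–0.783) and 0.668 (0.642–0.695), and *Egr1* 0.798 (0.744–0.856) and 0.795 (0.756–0.836). All of these were lower in the high cells by less than 1.5-fold. *Nr4a2*, at 0.866 (0.700–1.06) and 0.924 (0.795–1.07), and *Tob1*, at 0.935 (0.707–1.22) and 1.04 (0.882–1.23), did not differ beyond counting error. Relative to the median gene the log2 ratios were -0.65 and -0.50 for *Fos*, -0.63 and -0.72 for *Jun* and -1.82 and -0.94 for *Btg2*, and on that scale 4 genes of Em-Ex and 3 of YS-Ex were past 1.5-fold lower (541 genes higher and 476 lower in Em-Ex, 802 and 605 in YS-Ex).

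Levels of these genes also differed by depth. Those of *Fos* and *Jun* fell from shallow to deep cells, and *Fos* was at 1670, 1298 and 832 CPM in Em-Ex cells under 8000, from 8000 to 16000 and of 16000 or more UMIs, and at 2145, 1934 and 1440 CPM in YS-Ex. *Jun* went from 1231 to 802 and 511 CPM in Em-Ex, and from 1705 to 1180 and 695 CPM in YS-Ex. *Btg2* had another course in each library, falling from 34.9 to 31.8 and 14.3 CPM in Em-Ex and standing at 42.8, 77.1 and 72.5 CPM in YS-Ex.

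Among cells with 16000 UMIs or more, *Mki67*/*Aspm*-high cells had 0.975 (0.923–1.03) and 0.978 (0.942–1.01) of the *Fos* level of *Mki67*/*Aspm*-0 cells in Em-Ex and YS-Ex, and 1.01 (0.946–1.08) and 1.0 (0.949–1.05) of the *Jun* level. *Egr1* was at 0.974 (0.886–1.07) and 0.915 (0.859–0.974). *Btg2* was lower, at 0.577 (0.355–0.901) and 0.491 (0.402–0.595). *Dusp2* was at 0.259 (0.131–0.469) and 0.873 (0.304–2.24), and *Nr4a2* at 0.915 (0.712–1.17) and 0.719 (0.604–0.852). From 8000 to 16000 UMIs, with 60 and 61 high cells, *Fos* was at 0.782 and 0.735, *Jun* at 0.807 and 0.717 and *Egr1* at 0.868 (0.764–0.982) and 0.712 (0.634–0.797), so these genes were lower in the high cells there. *Btg2* was at 0.184 (0.0593–0.433), from 5 UMIs, in Em-Ex and at 0.675 (0.476–0.930) in YS-Ex, the latter under 1.5-fold, and with cells thinned to 3000 UMIs its YS-Ex log2 ratio was -0.36, also under 1.5-fold. The deep subset was added after the values were seen, it held 90 and 122 high cells, and no doublet caller was run, so whether some of these droplets held 2 cells was not tested.

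**Figure D4:**
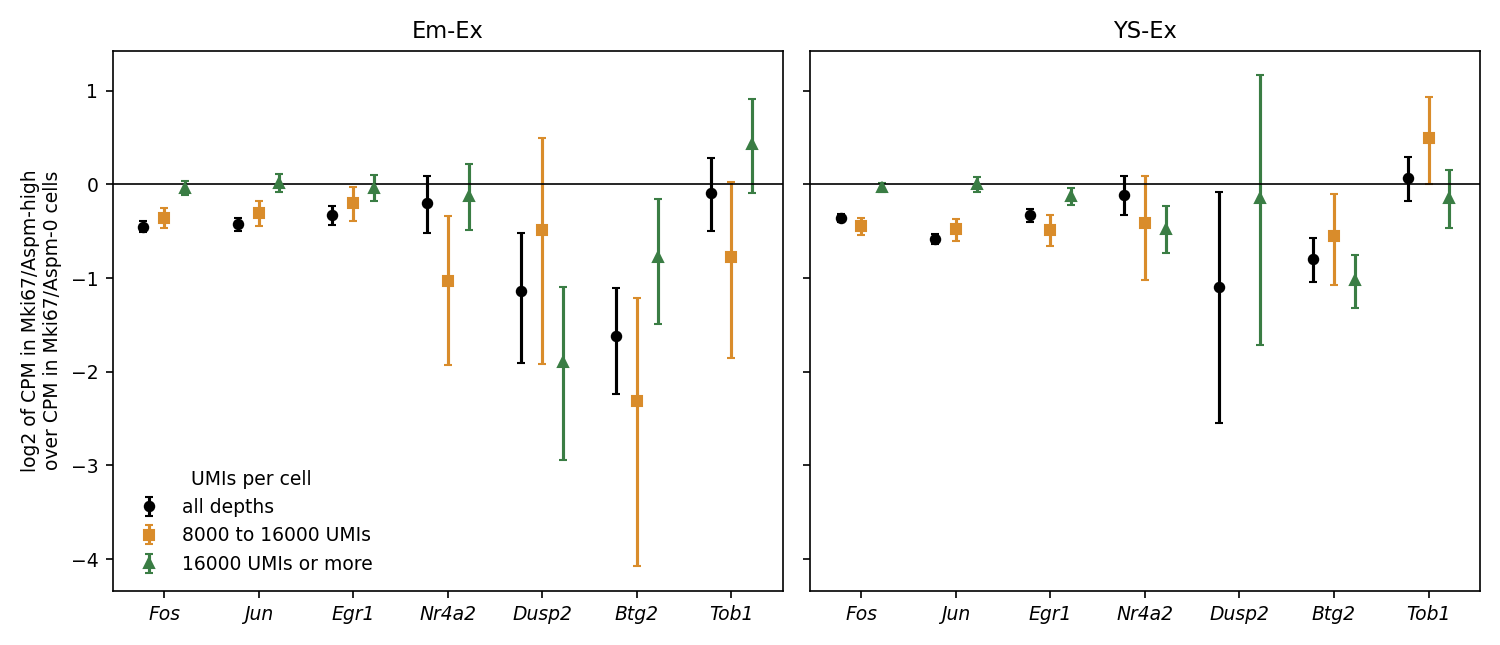
The log2 ratio of CPM in Mki67/Aspm-high over Mki67/Aspm-0 cells for each gene in Em-Ex (left) and YS-Ex (right), in all Cpa3-high cells (black circles), in cells of 8000 to 16000 UMIs (orange squares) and in cells of 16000 UMIs or more (green triangles), with exact 95% intervals for counting error. Green triangles of Fos and Jun lie close to 0 in both libraries and those of Btg2 below it; Dusp2 had 0 UMIs in the 61 YS-Ex high cells of 8000 to 16000 UMIs and is not drawn there.

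Cells between the 2 limits, with a UMI of *Mki67* or *Aspm* but fewer than 2 per 10000, had ratios to *Mki67*/*Aspm*-0 cells of 0.201 (0.137–0.286) in Em-Ex against 0.659 (0.558–0.774) in YS-Ex for *Btg2*. These cells were unlike in the libraries, with a median of 13.3 UMIs of the G2/M list per 10000 in Em-Ex and 2.84 in YS-Ex, and of 8.71 and 4.83 UMIs of the S phase list. *Fos* was at 0.635 and 0.773 and *Jun* at 0.592 and 0.645. In these cells *Fos* and *Jun* also stayed lower at 16000 UMIs or more, at 0.741 (0.706–0.778) and 0.888 (0.851–0.927) for *Fos* and 0.710 (0.666–0.756) and 0.819 (0.768–0.872) for *Jun*. *Egr1* was at 238 CPM in the between and 392 CPM in the *Mki67*/*Aspm*-0 cells of Em-Ex, and at 439 and 610 CPM in YS-Ex. *Tob1* was at 15.6 and 23.9 CPM in Em-Ex, and at 43.2 and 45.7 CPM in YS-Ex. Both were past 1.5-fold lower in Em-Ex, beyond counting error, and neither was in YS-Ex. *Nr4a2* (36.0 and 43.0 CPM, 60.6 and 64.0 CPM) and *Dusp2* (13.3 and 16.0 CPM, 3.81 and 4.34 CPM) had overlapping intervals in each library. Past 1.5-fold lower in the between cells were 4.07% of all genes in Em-Ex against 2.96% in YS-Ex.

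Among cells without *Mki67* or *Aspm*, the 25% highest for 20 S phase genes were set against the 25% lowest. In Em-Ex (436 cells each) the ratio was 0.628 (0.605–0.651) for *Fos*, 0.638 (0.610–0.667) for *Jun*, 0.675 (0.633–0.721) for *Egr1* and 0.605 (0.475–0.771) for *Btg2*, and *Dusp2* was 3.10-fold (2.14–4.62) higher, a value that was 6.61 (3.54–13.4) from 8000 to 16000 UMIs and 0.922 (0.538–1.67) at 16000 or more. In YS-Ex (393 cells each) it was 0.900 (0.873–0.927) for *Fos*, 0.853 (0.820–0.886) for *Jun*, 1.0 (0.948–1.05) for *Egr1* and 1.01 (0.868–1.18) for *Btg2*. *Nr4a2* was at 69.7 CPM (62.6–77.3) in the highest and 55.6 CPM (48.8–63.2) in the lowest cells of YS-Ex. *Tob1* was at 46.7 and 38.8 CPM there, and *Dusp2* at 3.36 and 1.87 CPM, from 17 and 8 UMIs. In Em-Ex *Nr4a2* was at 37.2 and 40.3 CPM and *Tob1* at 19.2 and 26.3 CPM. The contrast was narrower in YS-Ex, where the median of the S phase list went from 0 to 5.0 UMIs per 10000, against 0.598 to 10.3 in Em-Ex. The background was 5.14% of genes past 1.5-fold lower in Em-Ex against 0.983% in YS-Ex. The median depth of the highest and lowest cells was 12816.5 and 9466.5 UMIs for Em-Ex, and 11901 and 10976 for YS-Ex. At 8000 to 16000 UMIs the Em-Ex ratios were 0.722 for *Fos*, 0.731 for *Jun*, 0.739 for *Egr1* and 0.732 (0.539–0.989) for *Btg2*, and in the 149 and 37 cells of 16000 UMIs or more they were 0.652, 0.598, 0.826 and 0.892 (0.440–2.0). In YS-Ex they were 0.947, 0.907, 1.08 and 0.921, and in deep cells (112 and 47) 0.945, 1.35 (1.22–1.49), 0.887 and 1.20, so *Jun* turned there.

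Related lists went different ways in *Mki67*/*Aspm*-high against *Mki67*/*Aspm*-0 cells, beside 4.84% and 7.06% of all genes past 1.5-fold lower and 19.1% and 20.4% higher. These list values are at all depths. The high cells were the deeper ones, and the part of depth in the list values was not tested. The cytokine list had 8 of 9 genes (Em-Ex) and 6 of 7 genes (YS-Ex) lower and 0 higher (medians -1.15 and -0.98). Of the other immediate-early transcription factor genes 8 of 16 (Em-Ex) and 7 of 14 (YS-Ex) were lower past 1.5-fold and 0 higher (median log2 ratio -0.57 in both), among them *Junb* (0.531 and 0.478), *Ier3* (0.573 and 0.491), *Bhlhe40* (0.590 and 0.495) and *Klf2* (0.550 and 0.332). Of the feedback inhibitors 6 of 13 and 9 of 13 were lower (medians -0.52 and -0.65), such as *Dusp1* (0.640 and 0.650). Of the BTG/TOB relatives and CDK inhibitors 3 of 7 and 2 of 8 were lower and 2 higher in each library (medians -0.39 and -0.42). *Btg1*, a further BTG family gene, had 0.415 (0.383–0.449) and 0.418 (0.390–0.447), while the CDK inhibitor gene *Cdkn2d* was 2.72-fold and 2.0-fold higher. In the mast cell list 6 of 10 and 4 of 10 genes were lower, with *Tpsb2* at 0.554 and 0.551, and of the heat shock list 2 of 6 and 2 of 7 genes were higher (*Hsp90aa1* and *Hspd1*). Of the CCR4-NOT list 2 of 9 and 1 of 9 genes were higher and 0 lower (medians 0.35 and 0.24), and of the ERK pathway list 0 of 7 were past 1.5-fold in either library (medians 0.25 and 0.11), against medians of 0.20 and 0.14 over all genes.

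*Dusp2* was far higher outside Cpa3-high cells, and *Btg2* was 1.81-fold (1.62–2.01) higher in Cpa3-low cells of Em-Ex. In YS-Ex *Btg2* was at 71.6 CPM (59.7–85.1) in Cpa3-low and 72.0 CPM (68.7–75.4) in Cpa3-high cells, with no difference beyond counting error. In Em-Ex *Dusp2* was at 186 CPM (179–193) in the 871 Cpa3-low cells, 12.8-fold (11.5–14.2) above Cpa3-high cells, and at 210 CPM (197–223) in the 206 of them that were also *Mpo*-high (2 or more UMIs of the myeloperoxidase gene per 10000). A UMI of *Dusp2* was seen in 81.1% (75–86.2) of these *Mpo*-high cells at a median of 23125.5 UMIs, against 7.68% (6.60–8.87) of Cpa3-high cells at 11245.5, and in 37.4% and 2.32% after thinning. *Mpo* was at 363 CPM in Cpa3-low and 4.68 CPM in Cpa3-high cells of Em-Ex. *Dusp2* was not particular to the *Mpo*-high cells. In the 622 Cpa3-low cells of Em-Ex that were neither *Mpo*-high nor rich in the macrophage genes, it was at 181 CPM (173–190). Of the *Dusp2* UMIs of Cpa3-low cells, 1812 of 2863 lay in these 622 cells, where *Mpo* was at 20.4 CPM. In YS-Ex *Dusp2* was at 26.3 CPM (19.3–35) in 141 Cpa3-low cells, and the *Mpo*-high class held 13 cells, 7 of them with barcodes found in both libraries.

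The transcription factor genes had the opposite pattern in Em-Ex. *Jun* was at 124 CPM in *Mpo*-high cells, 0.169 (0.155–0.183) of its Cpa3-high level, *Fos* at 0.396 (0.379–0.414), *Egr1* at 0.336 (0.309–0.366), *Nr4a2* at 0.269 (0.201–0.355) and *Tob1* at 0.207 (0.129–0.316), while *Btg2* was at 0.993 (0.810–1.21). Thus 5 of the 7 genes were lower and 1 higher past 1.5-fold, beside 57.2% of all genes in either direction. With *Cpa3* counted in finer bins, *Dusp2* in Em-Ex went from 248 CPM in cells under 10 UMIs of *Cpa3* per 10000 to 40.7 CPM at 10 to 20 and 6.47 CPM at 160 or more, and *Jun* from 158 to 553 and 897 CPM. *Btg2* was highest below the limit, at 59.7 CPM (45.8–76.3) at 10 to 20, and even at 24.0 to 27.3 CPM above it.

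Just inside the *Cpa3* limit (40 to 50 UMIs per 10000) and just outside (30 to 40), *Fos* was at 881 and 972 CPM in Em-Ex against 1789 and 1874 CPM in YS-Ex, and *Btg2* at 23.9 and 34.7 CPM and 44.2 and 61.9 CPM. *Nr4a2* was at 31.4 and 35.7 CPM in Em-Ex, while in YS-Ex it was at 16.8 CPM (8.36–30) inside and 31.0 CPM (16.5–52.9) outside, from 11 and 13 UMIs. Over all filtered cells, without the *Cpa3* limit, all 7 genes were past 1.5-fold between the libraries, 6 lower and 1 higher in Em-Ex, beside 38.1% of genes in either direction. *Dusp2* was then 14.1-fold (12.0–16.8) higher in Em-Ex, *Btg2* 0.449 (0.418–0.481) and *Jun* 0.562 (0.552–0.571). In these pools the mixture of cells and the level per cell cannot be told apart.

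**Figure D5:**
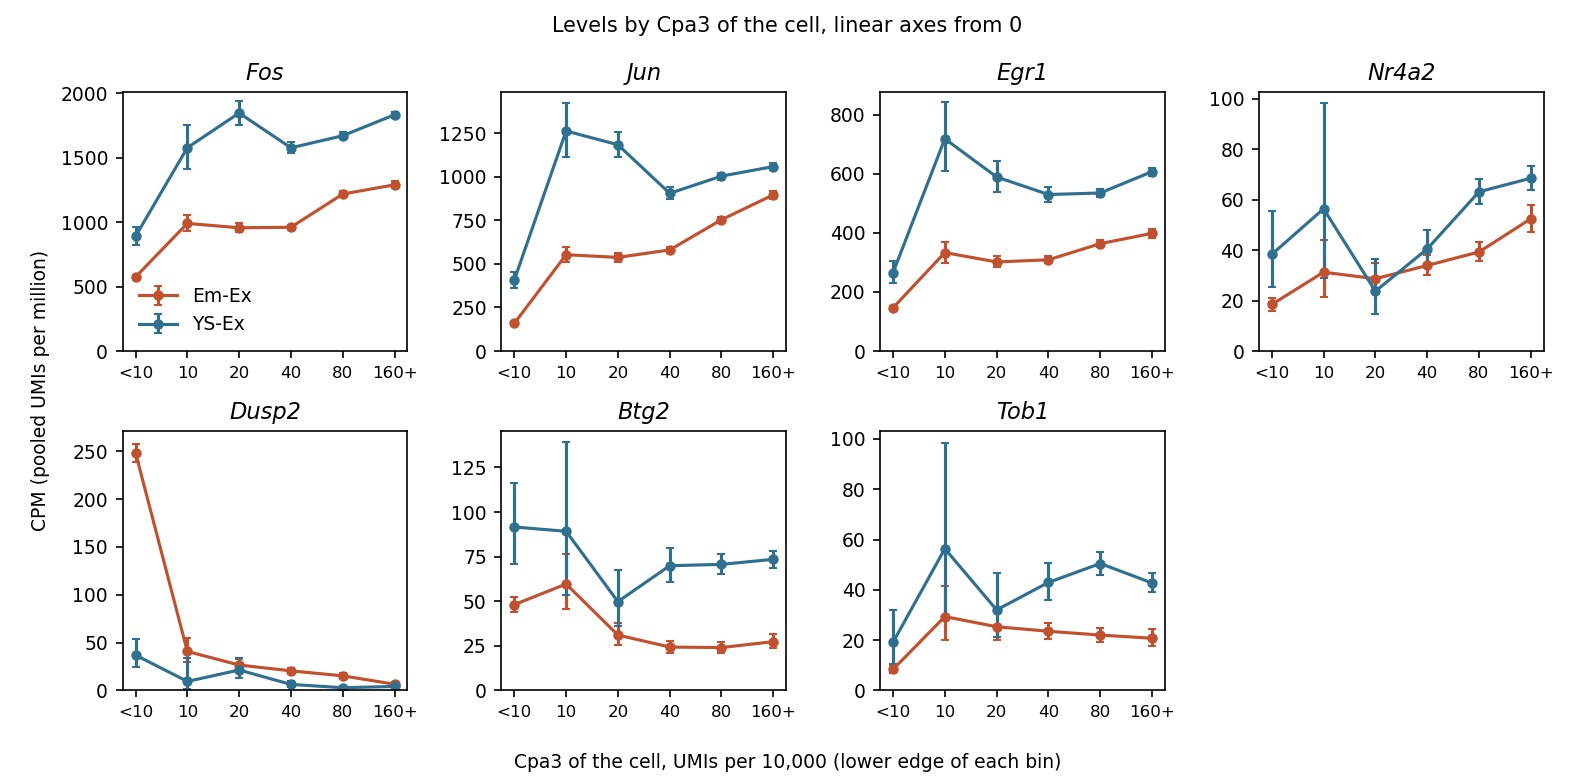
CPM of each gene (vertical axes from 0, with exact 95% intervals for counting error) in cells binned by Cpa3 level, for Em-Ex (orange) and YS-Ex (blue). Dusp2 falls from 248 CPM in Em-Ex cells under 10 UMIs of Cpa3 per 10,000 to 6.47 CPM at 160 or more, and Fos, Jun and Egr1 are lowest under 10 in both libraries.

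Cells rich in transcripts of the mast cell effector cytokines carried more of some of the 7 genes. In Cpa3-high cells with 20 or more UMIs per 10000 of a 12-gene cytokine list (80 Em-Ex and 52 YS-Ex cells) against those under 5 (1351 and 1157 cells), *Nr4a2* was 3.23-fold (2.55–4.04) and 3.50-fold (2.78–4.37) higher, *Btg2* 3.06-fold (2.23–4.12) and 2.23-fold (1.74–2.81), and *Egr1* 2.05-fold (1.87–2.24) and 1.65-fold (1.51–1.81). *Fos* was at 1.10 (1.04–1.17) and 0.872 (0.816–0.931), and *Jun* at 1.27 (1.18–1.37) and 0.949 (0.873–1.03). *Tob1*, at 0.795 and 1.04, did not differ beyond counting error, and *Dusp2*, from 16 and 11 UMIs in the rich cells, was at 1.52 (0.853–2.53) and 7.75 (3.56–15.6). Past 1.5-fold higher were 8.19% of all genes in Em-Ex against 12.2% in YS-Ex, and the limits of 20 and 5 were set after the values were seen.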

How the data were processed

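Per the labels and the paper's methods, the authors made a matrix of UMIs by gene and droplet (Cell Ranger 2.0.1, bcl2fastq 2.19.1.403, build mm10, credited to the submitters' processing notes) and deposited raw counts of both libraries in 1 table, with no normalization. The table also held barcodes over the stated limits. Cells with under 1000 or over 5000 genes or over 5% mitochondrial UMIs (13 genes) were removed, as the methods state. From the counts, levels were pooled as UMIs per 1000000 (CPM), with exact Poisson intervals, exact conditional intervals for ratios and a prior count of 0.5 in log2 ratios, all for counting error only. Genes at 20 CPM or more in 1 group entered the background shares, and a ratio past 1.5-fold was counted. Median depth was 12341 UMIs in Em-Ex and 11729 in YS-Ex, and no column was left unmapped. Cells are not replicates, so no test was run. Doublets were not called.

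The 7 genes and all lists were chosen with earlier results of these data known, and the S phase, cytokine and deep-cell divisions were added after values were seen. Named list genes were at 50 CPM or more in 1 group and past 1.5-fold, at most 4 per list and the highest by CPM; others were chosen after their values were seen. Of the lists, *Btg4*, *Cnot9*, *Hspa1b*, *Hspb1*, *Il5*, *Col1a1* and the endothelial genes were not in the table. Ratio steps were checked on simulated counts for Em-Ex over YS-Ex Cpa3-high cells (4741 genes): 100 of 100 genes raised 2-fold, 100 of 100 lowered 2-fold and 0 of 4541 unchanged genes were past 1.5-fold. The simulated cells were drawn from the pooled YS-Ex profile with counting noise only, for genes at 20 CPM or more. This checks the calculation and cannot give a rate of false calls between real libraries. Alternatives were other cell filters, limits, scalings, depths and correlations. Python 3.11.15, numpy 2.4.6, scipy 1.17.1, pandas 2.3.3, matplotlib 3.10.9 and, for TMM factors, edgeR 4.0.16 in R 4.3.3 were used. Gene positions are from GENCODE M21.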

Additional observations from a re-analysis of the deposited data

How the results depend on the processing

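No paired analysis was possible because each group had 1 library and the labels give no shared replicate numbers, and no library could be left out. The direction of the library difference of the 7 genes held under the alternatives run in Cpa3-high and in all cells, except for *Nr4a2* in Cpa3-high cells of 3000 to 8000 UMIs (log2 ratio 0.021, with *Btg2* at -0.29 there). Apart from those shallow cells, the log2 of Em-Ex over YS-Ex in Cpa3-high cells ran from -0.79 to -0.50 for *Fos*, -0.56 to -0.35 for *Jun*, -0.86 to -0.59 for *Egr1*, -0.85 to -0.43 for *Nr4a2*, -2.34 to -1.27 for *Btg2*, -1.35 to -0.85 for *Tob1* and 1.37 to 2.63 for *Dusp2*. With a 2-fold limit 3 genes were past it in Cpa3-high cells instead of 6, 3 in all cells instead of 7, and 1 in YS-Ex *Mki67*/*Aspm*-high cells instead of 2. That last count was also 1 in cells of 8000 to 16000 UMIs and in cells of 16000 UMIs or more. In Em-Ex the same count rose from 2 to 4 when scaled by the median ratio of genes, with TMM factors, with an *Mki67* and *Aspm* limit of 4 and between the upper and lower ends of a G2/M list, where *Dusp2* reversed to a log2 ratio of 0.028 from -1.14. The cause was not tested. Smaller ratios of the same comparison also crossed 0: in Em-Ex *Jun* (0.019) and *Tob1* (0.43) in cells of 16000 UMIs or more, *Tob1* when thinned (0.035) and *Egr1* at the limit of 4 (0.052), and in YS-Ex *Nr4a2* when thinned (0.46) and by the G2/M list (0.32), *Jun* in cells of 16000 UMIs or more (0.0012) and *Tob1* (0.065) under 5 alternatives, down to -0.15. The number of correlated pairs was 4 to 7 over the alternatives. With no minimum CPM, 4661 instead of 1581 genes were past 1.5-fold in Cpa3-high cells, 5125 instead of 2001 in all cells, 4126 instead of 1174 in Em-Ex and 4303 instead of 1458 in YS-Ex *Mki67*/*Aspm*-high cells, and at 2-fold 581, 778, 453 and 647. Depth limits *Dusp2* most, with 99 UMIs in YS-Ex Cpa3-high cells.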

Other observations

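Barcodes with *Cpa3* at 40 or more but over the 5% mitochondrial limit, which took no part in the levels above, carried more of several of the 7 genes than the cells kept. They numbered 260 in Em-Ex against 865 in YS-Ex, with median mitochondrial shares of 5.85% and 6.35% and median depths of 6061 and 6086 UMIs. *Jun* was 1.45-fold and 1.43-fold higher in them, *Egr1* 1.53-fold and 1.45-fold, and *Btg2* 1.92-fold and 1.64-fold. *Fos* was 1.23-fold and 1.07-fold higher and *Nr4a2* 1.29-fold and 1.24-fold, all with counting intervals above 1. *Tob1* and *Dusp2* did not differ beyond counting error, and *Cpa3* itself was at 1.11 and 0.928 of the level in the cells kept. These barcodes were shallower than the cells kept. With both sides limited to 3000 to 8000 UMIs (191 and 607 barcodes against 536 and 385 cells kept, at medians of 5541 and 5120 against 6255 and 6148 UMIs, so still not equal), *Fos* was lower in them, at 0.850 (0.803–0.900) and 0.854 (0.823–0.887) of the level in the cells kept, and *Jun*, at 0.984 (0.924–1.05) and 0.963 (0.924–1.0), did not differ beyond counting error. *Egr1*, at 1.20 (1.09–1.32) and 1.29 (1.22–1.38), and *Btg2*, at 1.66 (1.20–2.28) and 2.38 (1.90–3.01), were higher in them, and *Nr4a2* was at 1.25 (0.870–1.78) and 2.35 (1.82–3.07). This limit on depth was added after the values were seen. Among the cells kept, the correlation with mitochondrial share was 0.18 in Em-Ex and 0.13 in YS-Ex for *Jun* and 0.15 and 0.14 for *Egr1*, and with the summed heat shock list -0.31 and -0.31 for *Jun* and -0.27 and -0.22 for *Fos*. With the log of UMIs per cell it was -0.31 and -0.34 for *Jun* and -0.24 and -0.14 for *Fos*. Whether the heat shock correlations are apart from depth was not tested.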
